A study of Mus musculus with 8 samples.

Results

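The high-numbered Zfp genes are the mouse zinc finger genes that the array files name in the range Zfp600 to Zfp999. The members were chosen by name alone among the probes of genes, which gave 43 genes with 77 probes, of 27677 genes with 41174 probes in all. Of these, 41 genes were compared, those with a probe well above background on the 2 arrays of 1 or more groups. Zfp711, whose 3 probes were well above background on no array, and Zfp712, whose probe was so on 1 input array, were not. Zfp690 is now named Zscan29 and Zfp694 is now Zkscan2, and the older names are kept here. Zfp946 and Zfp758 were put forward as the leading genes of the group, but both stand in the array files under other names and so are not among the 43. They are described near the end with the other genes that have taken a number in this range since the array was designed. The group as such was proposed with results of these arrays in view, but the sources used here do not give the values it was selected on. Its counts are descriptions beside the share of all genes that was called. At the edge of the naming rule, Zfp606 inside it lay at -0.93 in the V5 IP against the mock IP, and Zfp598 just outside it at -0.66 (log2). Zfp606 was not called there (adjusted p = 0.144 by limma), and its other probe had the opposite sign, at 2.13.

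Zinc finger proteins of this kind bind DNA through tandem C2H2 fingers. Many also carry a KRAB domain, which recruits the co-repressor TRIM28 and with it the H3K9 methyltransferase SETDB1 to silence transposable elements, a process that matters in germ cells and early embryos, where DNA methylation is low. Others have lost or never had a KRAB domain and act in RNA biology, chromatin complexes or signalling. A shared name therefore marks no shared function.

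The study measured RNA bound to DAZL, a germ cell protein that binds mRNA and controls the translation of its target mRNAs. The cells were primordial germ cells differentiated in culture for 12 days from V6.5 mouse embryonic stem cells, and all 4 groups came from cells with DAZL fused to GFP and V5 tags. The groups were an immunoprecipitation (IP) with an antibody against V5, an IP with an antibody against GFP, a mock IP with normal mouse IgG and total input RNA, with 2 arrays each. Lysates were native, without ultraviolet crosslinking. Nothing in the labels says that replicates came from separate cultures, and the spread behind each p-value, being that of the arrays alone, may be technical.

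Levels are log2 of the processed intensity, scaled so that the 75th percentile of each array is 0, and differences between groups are log2 fold changes with their standard error (SE). Scaling was to the array's own signal, so a lower level does not show that less RNA was recovered. Between 61.2% and 70.5% of probes were well above background, and the mock array of slide 1 had the dimmest 75th percentile (352) of the 8. Slide 1 carried replicate 1 of all groups, and slide 2 carried replicate 2. Of 12 primordial germ cell markers, 11 were well above background on both input arrays, and Prdm14 had no probe that was compared. The 11 included the pluripotency genes Pou5f1, Sox2 and Nanog. No list covered undifferentiated stem cells, so their share in the cultures was not described. Markers of other cells were measured as well: 6 of 6 for feeder fibroblasts, 5 of 6 for neuroectoderm, 5 of 6 for endoderm, 5 of 6 for mesoderm and heart and 6 of 6 for blood and endothelium. The feeder list summed to 18.6 and 10.1 times the 75th percentile in the V5 IP, 16.8 and 9.76 in the GFP IP, 66.4 and 16.4 in the mock IP and 19.6 and 16.0 in input. The neuroectoderm list summed to 20.6 and 9.57 in the V5 IP, 19.0 and 10.4 in the GFP IP, 8.47 and 7.12 in the mock IP and 3.78 and 5.62 in input. The germ cell list summed to 263 and 155 in the V5 IP, 261 and 175 in the GFP IP, 73.2 and 57.4 in the mock IP and 77.8 and 70.5 in input. The part of these lists in the differences below was not tested. In RNA of whole cultures, fewer cells of a type and less RNA per cell cannot be told apart. Dazl itself lay 2.63 above the mock IP in the V5 IP and 2.71 above it in the GFP IP (log2).

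The 4 promoters below belong to the 2 members highest and 2 of the members lowest in both DAZL IPs against the mock IP. They are the 300 bases around the gene start in RefSeq (GRCm38.p6), read 5′ to 3′ on the gene's strand, with every CG in capitals. Zfp664 starts in chr5:124862455-124862754 (plus strand) and holds 39 CG, Zfp715 in chr7:43313251-43313550 (minus strand) holds 13, Zfp653 in chr9:22071327-22071626 (minus strand) holds 22 and Zfp628 in chr7:4914967-4915266 (plus strand) holds 24.

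Zfp664: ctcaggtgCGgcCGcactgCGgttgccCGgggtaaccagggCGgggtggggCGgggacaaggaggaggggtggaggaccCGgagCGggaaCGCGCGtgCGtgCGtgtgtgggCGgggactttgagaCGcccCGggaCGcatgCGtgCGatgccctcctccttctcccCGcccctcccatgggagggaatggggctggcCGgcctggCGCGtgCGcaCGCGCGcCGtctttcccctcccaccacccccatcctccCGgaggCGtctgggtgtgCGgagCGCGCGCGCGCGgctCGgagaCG
Zfp715: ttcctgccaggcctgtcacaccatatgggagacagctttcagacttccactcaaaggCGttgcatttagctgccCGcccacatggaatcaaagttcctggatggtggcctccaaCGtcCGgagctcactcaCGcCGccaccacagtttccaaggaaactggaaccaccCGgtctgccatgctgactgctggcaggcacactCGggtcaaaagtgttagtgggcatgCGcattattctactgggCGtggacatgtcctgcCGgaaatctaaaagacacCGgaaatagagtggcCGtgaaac
Zfp653: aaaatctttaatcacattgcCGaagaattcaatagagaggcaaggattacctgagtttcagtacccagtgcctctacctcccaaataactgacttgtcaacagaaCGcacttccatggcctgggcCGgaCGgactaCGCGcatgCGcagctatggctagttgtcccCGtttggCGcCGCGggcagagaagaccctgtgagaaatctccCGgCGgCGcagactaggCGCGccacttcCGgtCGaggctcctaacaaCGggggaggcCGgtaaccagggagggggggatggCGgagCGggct
Zfp628: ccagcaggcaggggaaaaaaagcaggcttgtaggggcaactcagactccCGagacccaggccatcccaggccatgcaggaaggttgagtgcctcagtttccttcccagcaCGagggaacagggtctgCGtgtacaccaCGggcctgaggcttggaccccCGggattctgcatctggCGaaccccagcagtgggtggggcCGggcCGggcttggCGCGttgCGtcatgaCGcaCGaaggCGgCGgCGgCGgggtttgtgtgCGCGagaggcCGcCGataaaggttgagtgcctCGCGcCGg

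CG, which reads the same on both strands, is the site of DNA methylation. It was found at least once in 94.6% of the 32851 promoters of the same length in the table. Of the 43 members, 32 had a promoter there, with a median of 23.5 CG (4 to 59), against 8 over 27025 genes. The counts describe these windows only. No protein sequences were used here.

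The members spanned a wide range of input levels. Zfp706, a small zinc finger protein known to hold back exit from the embryonic stem cell state, was the brightest, at 4.66 and 4.38 in the V5 IP, 4.57 and 4.35 in the GFP IP, 4.45 and 4.34 in the mock IP and 3.98 and 4.00 in input. All 6 precipitate arrays lay above both input arrays, but none of its comparisons passed. Zfp710 came next in input, then Zfp639, Zfp655, Zfp622, Zfp637, Zfp687 and Zfp688. At the dim end Zfp641 lay at -6.11 and -5.70 in input and Zfp709 at -5.65 and -5.21. These orders are of probe brightness, since no probe's signal can be set against another probe's as an amount. Of the 41 members, 36 were well above background on all 8 arrays and 0 were saturated on any.

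V5 IP against the mock IP is the first of 2 measures of RNA that came down with tagged DAZL rather than with IgG. By limma with Benjamini-Hochberg adjustment over 19029 genes, 4 of the 41 members were higher and 13 lower in the V5 IP, where 14.6% of all genes were called higher and 21.4% lower. In the GFP IP against the mock IP, 6 were higher and 14 lower, against 16.3% and 26.5% of all genes. The median member lay at -0.43 in the V5 IP and -0.42 in the GFP IP, beside a median of -0.44 in each over all genes. The 2 comparisons share the mock arrays. Centring on the median turned the split into 4 higher and 8 lower in the V5 IP, and the authors' deposited table turned it into 6 and 8 (15% and 8.15% of all genes with that centring, 16% and 7.91% with that table).

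Zfp664, Zfp715, Zfp654 and Zfp750 were called higher in both DAZL IPs. Zfp664, a C2H2 zinc finger gene, lay at 1.96 and 1.42 in the V5 IP and 2.26 and 1.58 in the GFP IP, against -0.26 and 0.33 in the mock IP and 0.09 and 0.22 in input. Its 4 DAZL IP arrays all lay above its 4 mock and input arrays. It rose 3.16-fold in the V5 IP over the mock IP (log2 1.66 ± 0.34 SE, adjusted p = 0.0166 by limma) and 3.70-fold in the GFP IP (1.89 ± 0.34, adjusted p = 0.00861). Over the mock IP it was 2.23 (V5) and 2.52 (GFP) higher on slide 1, and 1.09 and 1.26 higher on slide 2.

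Zfp715 had -0.98 and -1.16 in the V5 IP and -1.26 and -0.96 in the GFP IP, against -3.28 and -2.17 in the mock IP and -1.99 and -1.78 in input. Both DAZL IPs lay above the other groups without overlap, and mock IP was the lowest. It rose 3.15-fold in the V5 IP (log2 1.65 ± 0.37, adjusted p = 0.0201 by limma) and 3.06-fold in the GFP IP (1.61 ± 0.37, adjusted p = 0.0151). Its other kept probes lay 0.83 and 1.87 above the mock IP in the V5 IP and 0.75 and 1.92 above it in the GFP IP, so all 3 had the same sign there. Against input the same 2 probes lay at 0.66 and -0.07 in the V5 IP and 0.58 and -0.02 in the GFP IP. The kept probes thus differed in sign against input, and the probe at -0.07 lay at -1.94 in the mock IP against input.

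Zfp654 had -0.73 and -0.41 in the V5 IP and -1.05 and -0.34 in the GFP IP, against -2.33 and -1.88 in the mock IP and -1.63 and -1.50 in input. It rose 2.90-fold in the V5 IP (log2 1.54 ± 0.31, adjusted p = 0.0162 by limma) and 2.67-fold in the GFP IP (1.41 ± 0.31, adjusted p = 0.0139). The gene's second kept probe differed: it lay at -0.12 in the V5 IP and -0.46 in the GFP IP against the mock IP, and at -3.60 in the V5 IP, -3.94 in the GFP IP and -3.48 in the mock IP against input. With the mean of both probes the calls ended. Zfp750, known as a regulator of epidermal differentiation, rose 2.02-fold in the V5 IP (log2 1.01 ± 0.32, adjusted p = 0.0444 by limma) and 2.11-fold in the GFP IP (1.08 ± 0.32, adjusted p = 0.0319). Its V5 call ended in 10 of the 16 alternative settings and its GFP call in 8, more than for Zfp664, Zfp715 or Zfp654.

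In the GFP IP, 2 further members were called higher. Zfp609 had 1.15 and 0.82 in the V5 IP and 1.35 and 1.01 in the GFP IP, against 0.26 and 0.37 in the mock IP and -0.47 and -0.41 in input. Its difference from the mock IP was 0.87 ± 0.24 in the GFP IP (adjusted p = 0.0261 by limma) and 0.67 ± 0.24 in the V5 IP (adjusted p = 0.0625). The gene's other kept probes lay at 0.82 and 0.06 in the GFP IP and 0.78 and -0.07 in the V5 IP. With the mean of its probes the GFP call against the mock IP ended. Zfp641 had -5.26 and -5.03 in the V5 IP and -4.43 and -4.34 in the GFP IP, against -6.27 and -5.05 in the mock IP and -6.11 and -5.70 in input. In mock IP 1 of 2 arrays was well above background, which leaves no fold over the mock IP. Between the antibodies 0 members were called by limma, with or without a slide block (0.00526% higher and 0% lower of all genes with it, 0% without), and 0 members had an unadjusted p under 0.05, beside 187 of all genes.

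**Figure D1:**
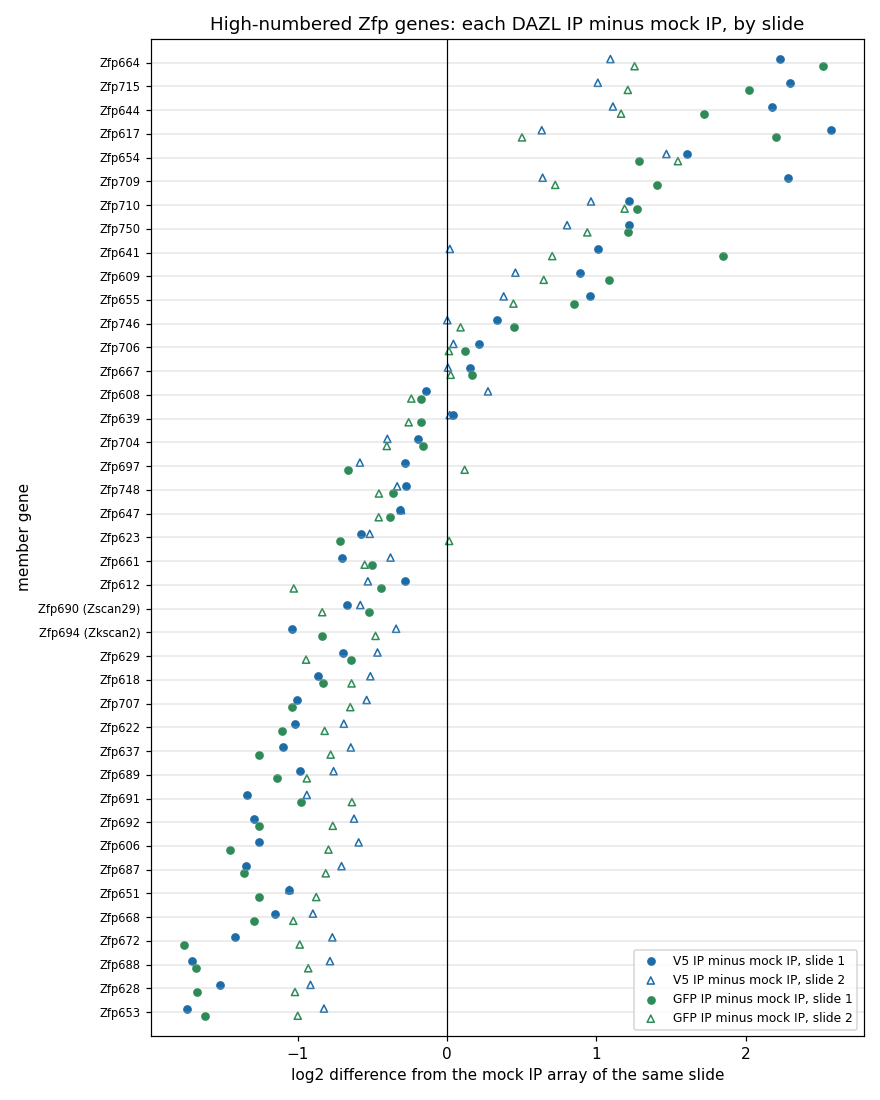
Log2 difference (x axis) between each DAZL IP array and the mock IP array of the same slide, for the 41 members compared (y axis, ordered by the mean of the V5 and GFP fold changes). Filled circles are slide 1 and open triangles slide 2; Zfp664 tops the order at 2.23 and 2.52 on slide 1 and Zfp653 closes it at -1.74 and -1.62, with slide 2 nearer to 0 for both.

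The 13 members called lower in both DAZL IPs were Zfp618, Zfp622, Zfp628, Zfp637, Zfp651, Zfp653, Zfp668, Zfp672, Zfp687, Zfp688, Zfp689, Zfp691 and Zfp692, with Zfp707 called in the GFP IP alone. Zfp653, known as a co-repressor of the nuclear receptor SF-1, had -0.83 and -0.60 in the V5 IP and -0.71 and -0.77 in the GFP IP, against 0.91 and 0.23 in the mock IP and -0.16 and -0.72 in input. It was 2.44-fold lower in the V5 IP than in the mock IP (log2 -1.28 ± 0.31, adjusted p = 0.0240 by limma) and 2.48-fold lower in the GFP IP (-1.31 ± 0.31, adjusted p = 0.0169). Mock IP was the highest group, and the DAZL IP arrays overlapped the input arrays.

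Zfp628 had 0.76 and 1.06 in the V5 IP and 0.61 and 0.95 in the GFP IP, against 2.28 and 1.97 in the mock IP and 0.46 and 0.89 in input. It was 2.33-fold lower in the V5 IP (log2 -1.22 ± 0.28, adjusted p = 0.0206 by limma) and 2.54-fold lower in the GFP IP (-1.35 ± 0.28, adjusted p = 0.0118). Both mock arrays stood above the other 6, which overlapped.

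Zfp688 and Zfp689 are next to each other in the RefSeq gene order, as are Zfp672 and Zfp692, and all 4 were called lower in both IPs. Zfp688 had 1.77 and 2.15 in the V5 IP and 1.79 and 2.0 in the GFP IP, against 3.48 and 2.93 in the mock IP and 2.23 and 2.03 in input (log2 -1.25 ± 0.28 in the V5 IP and -1.31 ± 0.28 in the GFP IP, adjusted p = 0.0202 and 0.0129 by limma). Zfp689 lay at -0.87 ± 0.22 and -1.04 ± 0.22 against the mock IP, and its second kept probe had the opposite sign in both. With the mean of the probes the calls of Zfp689 ended, as did that of Zfp672 in the V5 IP. Zfp672 lay at -1.10 ± 0.27 in the V5 IP and -1.38 ± 0.27 in the GFP IP, and Zfp692, a regulator of gluconeogenic genes also called AREBP, at -0.96 ± 0.25 and -1.01 ± 0.25. Zfp623 and Zfp707 are adjacent too. Zfp707 lay at -0.77 ± 0.28 in the V5 IP and -0.84 ± 0.28 in the GFP IP and was called in the GFP IP, and Zfp623 lay at -0.55 ± 0.31 and -0.35 ± 0.31 and was not called. The difference between them was not tested.

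Zfp668, which takes part in the DNA damage response, had 0.49 and 0.55 in the V5 IP and 0.35 and 0.42 in the GFP IP, against 1.64 and 1.45 in the mock IP and 0.47 and 0.53 in input. The input and V5 arrays overlapped, the GFP arrays lay just below them, and both mock arrays lay above. Its difference from the mock IP was -1.03 ± 0.22 in the V5 IP and -1.16 ± 0.22 in the GFP IP (adjusted p = 0.0177 and 0.00940 by limma). Zfp687, a partner of the chromatin reader ZMYND8, lay at -1.03 ± 0.26 in the V5 IP and -1.09 ± 0.26 in the GFP IP, and Zfp651, also called Zbtb47, at -1.06 ± 0.24 and -1.07 ± 0.24. The other 4 called lower in both, Zfp618, Zfp622, Zfp637 and Zfp691, lay between -0.69 and -1.14 in the V5 IP and between -0.74 and -1.02 in the GFP IP.

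These calls changed when arrays were left out, which also leaves fewer arrays in the fit. The share of all genes called in those fits is not given here, so the changes are not read as particular to the members. Without the V5 array of slide 1 or without the mock array of slide 1, 0 members were called in either direction in the V5 IP against the mock IP. Without 1 input array, whichever it was, 3 were higher and 2 lower. In the GFP IP against the mock IP, 1 was higher and 0 lower without the GFP array of slide 1, 1 and 2 without the mock array of slide 1, and 3 and 8 without the GFP array of slide 2. With normexp background correction 0 were higher and 0 lower in the V5 IP and 1 and 2 in the GFP IP, where 4.98% and 0.0526% of all genes were called in the V5 IP and 6.16% and 2.37% in the GFP IP. When the fit held only the V5 and mock arrays, 0 were lower in the V5 IP, against 2.02% of all genes. A slide block, which pairs the arrays, gave 10 higher and 18 lower in the V5 IP, against 19.4% and 38.4% of all genes in that fit. For the GFP IP it gave 10 and 17, against 20.9% and 40.2%.

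**Figure D2:**
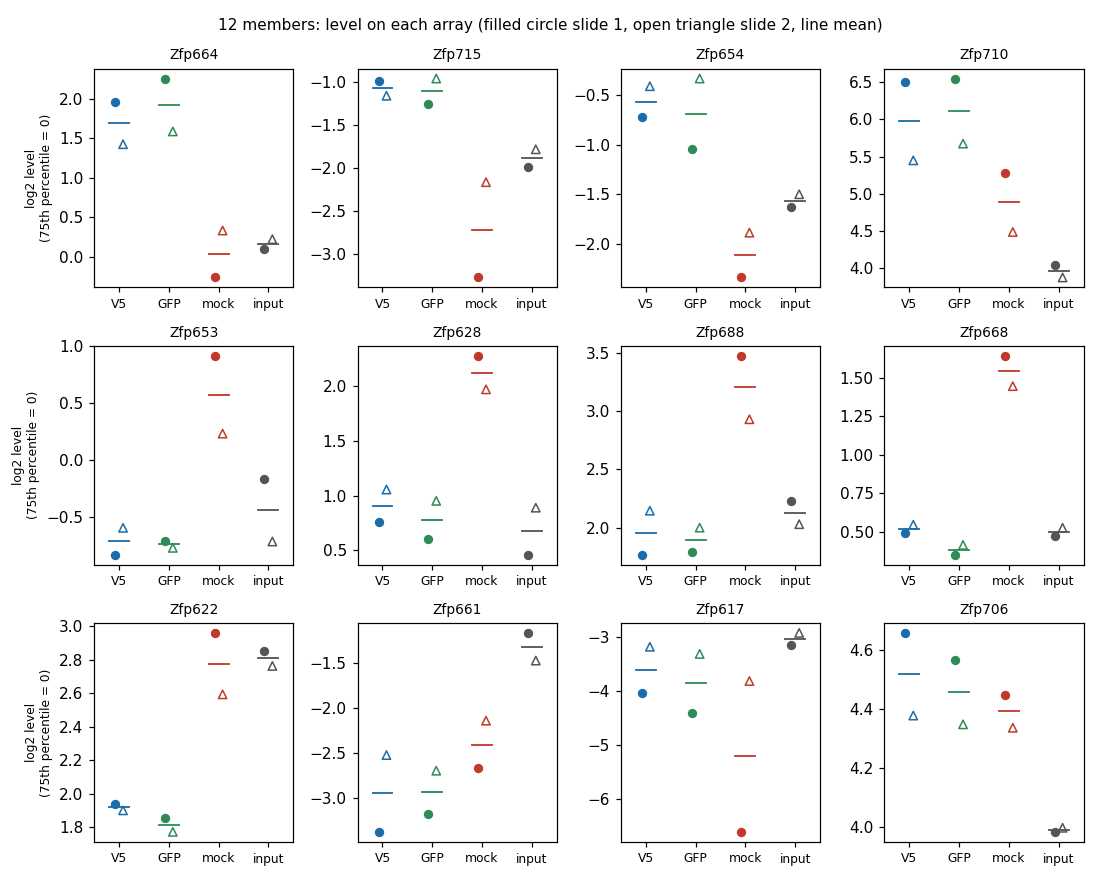
Level (y axis, log2 with the 75th percentile of the array at 0; each panel has its own range) of 12 members on every array, by group (x axis), with slide 1 as filled circles, slide 2 as open triangles and the mean of both as a line. Zfp664, Zfp715 and Zfp654 are higher in the V5 IP and GFP IP than in the mock IP and input, while for Zfp628, Zfp688 and Zfp668 mock IP alone stands above the other groups.

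Mock IP against input shows which RNAs gave more signal with IgG than in total RNA. Of the 41 members 6 were called higher and 0 lower by limma, beside 6.64% and 4.03% of all genes. An unadjusted p under 0.05 was reached by 16 of the 41 members, beside 6332 of the 19029 genes. The 6 were Zfp628, Zfp651, Zfp668, Zfp687, Zfp689 and Zfp707, and all 6 were also among the 14 called lower in at least 1 DAZL IP against the mock IP. The mock arrays are shared between these comparisons, so the overlap is not a second measurement. Zfp628 was 2.73-fold higher in the mock IP (log2 1.45 ± 0.28, adjusted p = 0.0282), Zfp651 2.52-fold (1.33 ± 0.24, adjusted p = 0.0257), Zfp687 2.18-fold (1.13 ± 0.26, adjusted p = 0.0384) and Zfp707 2.10-fold (1.07 ± 0.28, adjusted p = 0.0489). All 6 calls ended without the mock array of slide 1, and without 1 input array whichever it was. They ended with normexp background correction too. On slide 2 alone Zfp628 lay 1.08 above input and Zfp651 1.13 above it. A slide block gave 14 members higher and 5 lower, against 21.4% and 13.3% of all genes.

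At the low side of the mock IP, Zfp617 had -4.03 and -3.18 in the V5 IP and -4.40 and -3.31 in the GFP IP, against -6.60 and -3.81 in the mock IP and -3.15 and -2.92 in input. In mock IP 1 of 2 arrays was well above background, and Zfp617 was called in no comparison. Zfp644, a partner of the G9a and GLP histone methyltransferases, had -1.12 and -0.48 in the V5 IP and -1.58 and -0.42 in the GFP IP, against -3.29 and -1.59 in the mock IP and -1.52 and -1.10 in input. Its adjusted p by limma against the mock IP was 0.0650 for V5 and 0.0866 for GFP, and with a slide block it was 0.00646 and 0.00637, and its 3 kept probes had the same sign. Zfp709, not well above background on either mock array, was at least 1.49-fold higher in the V5 IP than in the mock IP and at least 1.13-fold higher in the GFP IP (adjusted p = 0.0537 and 0.118 by limma).

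The IPs against input ask which RNAs were a larger share of the DAZL precipitate than of the cell's RNA. In the V5 IP 3 of 41 members were called higher and 2 lower, beside 14.1% and 13.7% of all genes. In the GFP IP 4 were higher and 4 lower, beside 16% and 16.8%. Zfp609, Zfp664 and Zfp710 were higher in both, and Zfp641 in the GFP IP alone. Zfp710 had 6.50 and 5.45 in the V5 IP and 6.55 and 5.68 in the GFP IP, against 5.28 and 4.49 in the mock IP and 4.04 and 3.88 in input. It rose 4.05-fold over input in the V5 IP (log2 2.02 ± 0.46, adjusted p = 0.0173 by limma) and 4.46-fold in the GFP IP (2.16 ± 0.46, adjusted p = 0.0115). Against the mock IP it did not pass, at 1.09 ± 0.46 in the V5 IP (adjusted p = 0.0947) and 1.23 ± 0.46 in the GFP IP (0.0630), and its adjusted p with a slide block was 0.0103 and 0.00541. Mock IP itself lay 0.93 ± 0.46 above input for this gene.

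Zfp609 rose 2.68-fold over input in the V5 IP (log2 1.42 ± 0.24, adjusted p = 0.00651 by limma) and 3.07-fold in the GFP IP (1.62 ± 0.24, adjusted p = 0.00359). The GFP call is the 1 call of the 38 under the naming rule that held with every array left out in turn and under every alternative. Zfp664 rose 2.90-fold in the V5 IP (log2 1.54 ± 0.34, adjusted p = 0.0161) and 3.39-fold in the GFP IP (1.76 ± 0.34, adjusted p = 0.00848), while the mock IP lay at -0.12 ± 0.34 against input.

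Zfp622, known for its part in late maturation of the large ribosomal subunit, was lower in both DAZL IPs than in both other groups. It had 1.94 and 1.90 in the V5 IP and 1.86 and 1.77 in the GFP IP, against 2.96 and 2.59 in the mock IP and 2.85 and 2.76 in input. All 4 DAZL IP arrays lay below all 4 others. It was 1.85-fold lower than input in the V5 IP (log2 -0.89 ± 0.23, adjusted p = 0.0276 by limma) and 1.99-fold lower in the GFP IP (-0.99 ± 0.23, adjusted p = 0.0158). Of the 14 members called lower in a DAZL IP against the mock IP, it was the 1 also called lower against input.

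Zfp661 was called lower than input in both DAZL IPs. It had -3.37 and -2.52 in the V5 IP and -3.17 and -2.69 in the GFP IP, against -2.67 and -2.14 in the mock IP and -1.17 and -1.48 in input. It was 3.08-fold lower in the V5 IP (log2 -1.62 ± 0.36, adjusted p = 0.0161 by limma) and 3.05-fold lower in the GFP IP (-1.61 ± 0.36, adjusted p = 0.0140), and mock IP lay at -1.08 ± 0.36 (adjusted p = 0.0865). Zfp612 lay at -1.91 ± 0.62 in the V5 IP (adjusted p = 0.0552), -2.24 ± 0.62 in the GFP IP (0.0291) and -1.50 ± 0.62 in the mock IP (0.138). Zfp639 was lower in the GFP IP as well, at -1.06 ± 0.30 (adjusted p = 0.0317). Zfp612 and Zfp661 were the members more than 2-fold below input in all 3 precipitates (4.88% of the 41, beside 5.68% of all genes).

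Calls against input also changed without either input array, and without the V5 or GFP array of slide 1. The share of all genes called in those fits is not given here, so these changes are not read as particular to the members. A slide block gave 5 higher and 8 lower in the V5 IP (20.4% and 24.2% of all genes) and 6 and 10 in the GFP IP (22% and 26.8%). Without the block, 17 of the 41 members were called in no comparison, Zfp706 and Zfp655 among them. With it 9 of these 17 were called in at least 1, Zfp655 among them (adjusted p = 0.0330 in the V5 IP and 0.0350 in the GFP IP against the mock IP). The block also raised the share of all genes called, as from 21.4% to 38.4% lower in the V5 IP against the mock IP. The share of all genes called in no comparison is not given here, so the 17 and 9 are not read as particular to the members.

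**Figure D3:**
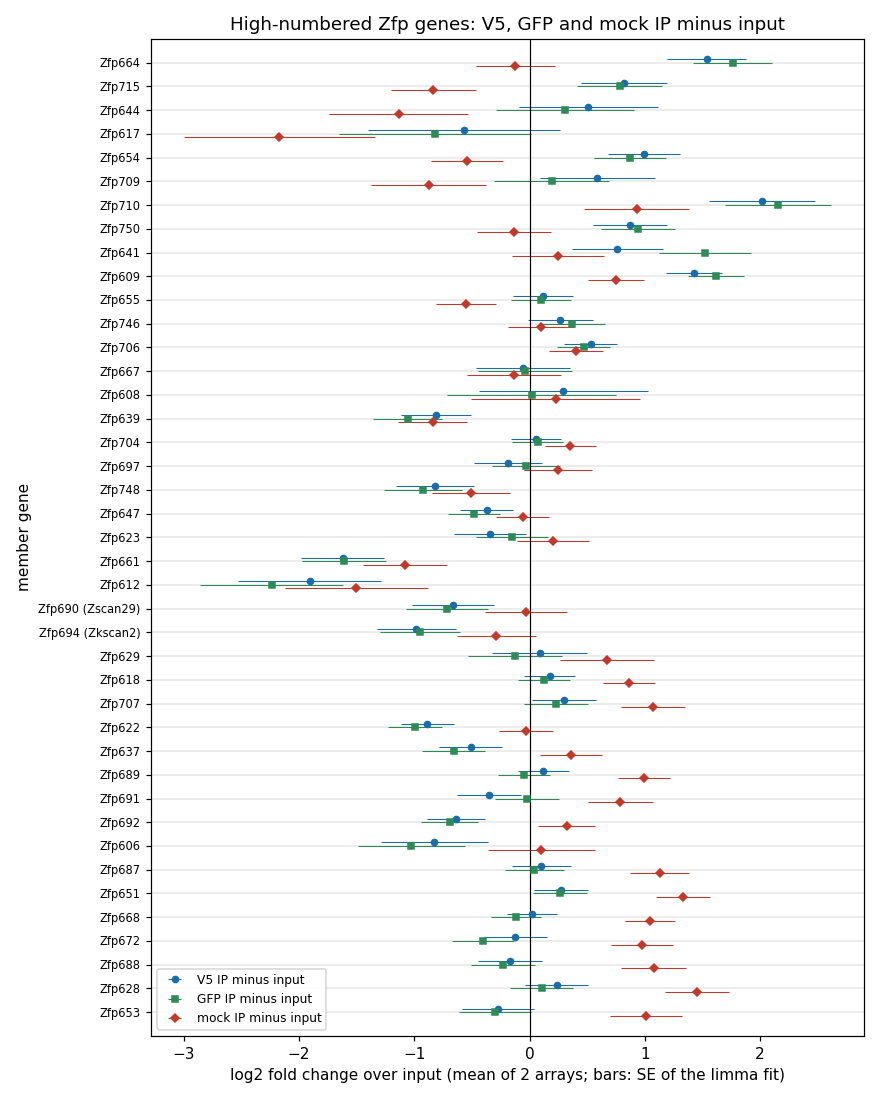
Log2 fold change over input (x axis) in the V5 IP, the GFP IP and mock IP for the 41 members (y axis, same order as in the plot by slide), with the SE of the limma fit as bars. Zfp628 sits at 0.23 in the V5 IP, 0.10 in the GFP IP and 1.45 in the mock IP, and Zfp622 at -0.89, -0.99 and -0.03.

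Probes of 1 gene did not always agree. Of the 18 members with more than 1 kept probe, 9 had kept probes of opposite sign in the V5 IP against the mock IP and 7 in the GFP IP. Zfp706's representative probe lay at 0.13 in the V5 IP and 0.07 in the GFP IP against the mock IP, and its other kept probe at 2.58 and 2.63. Zfp655, known for binding the signalling protein VAV1, had 4 kept probes between -0.17 and 0.87 in the V5 IP and between -0.21 and 0.77 in the GFP IP against the mock IP. Zfp609's 3 kept probes lay 1.42, 1.41 and 0.50 above input in the V5 IP.

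Replicates of the precipitates differed more than those of the input. For 0 of the 41 members did the input arrays differ by more than 1 on the log2 scale, while 4 members did in the V5 IP, 4 in the GFP IP and 7 in the mock IP. Over all 19029 genes, 453 did in input, 2208 in the V5 IP, 1694 in the GFP IP and 2469 in the mock IP. Of the 41 members, 17 were higher on slide 2 in all 3 precipitates and 8 lower in all 3 (41.5% and 19.5%), where over all genes these were 23.4% and 35.6%. Zfp608 lay 1.83 higher on slide 2 in the V5 IP, 1.35 in the GFP IP, 1.41 in the mock IP and 0.55 in input. Zfp710 lay lower on slide 2, with gaps of -1.05 in the V5 IP, -0.88 in the GFP IP, -0.80 in the mock IP and -0.16 in input.

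Another 86 genes have current RefSeq symbols from Zfp600 to Zfp999 but carried clone names or other symbols in the files, and 78 of them were compared. Against input 8 were higher and 23 lower in the V5 IP (10.3% and 29.5%), and 7 and 27 in the GFP IP (8.97% and 34.6%). Over all genes the shares were 14.1% and 13.7% in the V5 IP and 16% and 16.8% in the GFP IP. Their medians were -0.76 in the V5 IP, -0.82 in the GFP IP and -0.53 in the mock IP, against 0.06, -0.03 and 0.23 for the members. Against the mock IP 9 of the 78 were higher and 10 lower in the V5 IP (11.5% and 12.8%, beside 14.6% and 21.4% of all genes). In the GFP IP 9 were higher and 14 lower than in the mock IP (11.5% and 17.9%, beside 16.3% and 26.5%). More than 4-fold below input in all 3 precipitates were 14 of these 78 genes (17.9%), 0 of the 41 members and 8 of 202 lower-numbered Zfp genes, beside 1.30% of all genes. The difference between the sets of genes was not tested.

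Zfp946 had -6.17 and -3.05 in the V5 IP and -7.27 and -3.86 in the GFP IP, against -4.87 and -2.83 in the mock IP and 0.14 and 0.42 in input. Zfp758 had -6.38 and -3.11 in the V5 IP and -7.20 and -4.07 in the GFP IP, against -5.21 and -2.94 in the mock IP and 0.00 and 0.23 in input. For both, every precipitate array, mock included, lay below both input arrays, and slide 1 lay below slide 2 in each precipitate. Zfp946 was well above background on 1 of 2 arrays in each of the 3 precipitates, and Zfp758 on 1 of 2 in the V5 IP and GFP IP, so no fold is given. Zfp987 and Zfp985 were alike in pattern, at -4.85 and -4.71 in the V5 IP, -5.62 and -5.43 in the GFP IP and -4.11 and -4.01 in the mock IP against input. Genes of recent KRAB zinc finger clusters share long stretches of sequence, so probes of such copies may read more than 1 of them, and these values are uncertain as to the gene. Zfp809, which silences retroviral proviruses in mouse embryonic cells, differed. It had 0.44 and 0.78 in the V5 IP and 0.14 and 0.72 in the GFP IP. The mock IP had -1.58 and -1.07 and input -0.77 and -0.75. Zfp809 was called higher in both DAZL IPs than in the mock IP and input, but with the mean of its probes these calls ended. Its calls against input ended with normexp too.

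**Figure D4:**
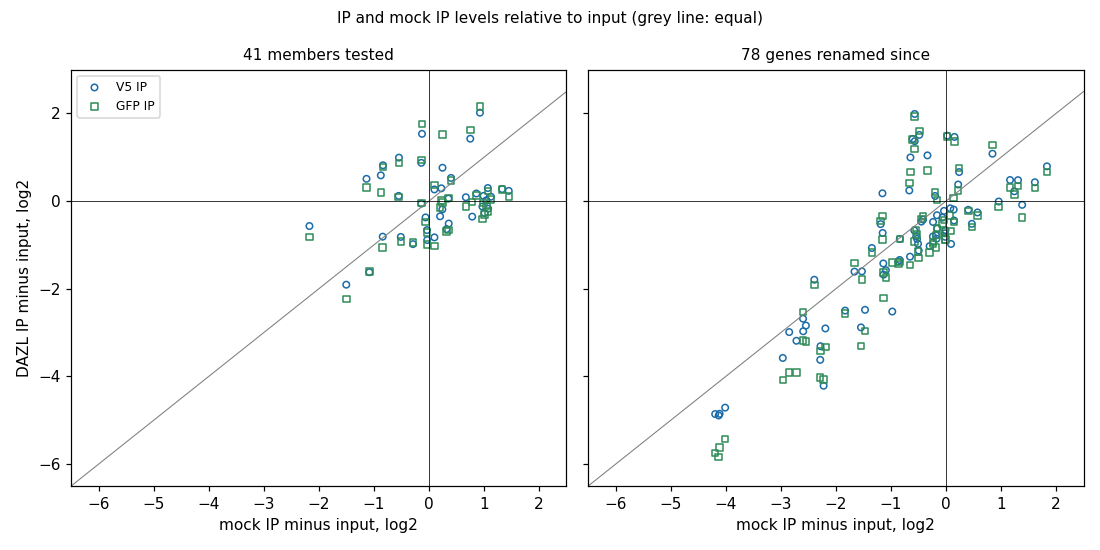
Log2 level of the V5 IP (circles) and GFP IP (squares) minus input (y axis) against the mock IP minus input (x axis), with 1 point per gene and antibody for the 41 members (left) and the 78 genes renamed since (right). The axes share the input arrays, so no correlation is given. More than 4-fold below input in all 3 precipitates lie 0 of the 41 members on the left and 14 of the 78 genes on the right.

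The lower-numbered Zfp genes gave 41 higher and 30 lower of 202 in the V5 IP against the mock IP, and 43 and 37 in the GFP IP. These are 20.3% and 14.9% in the V5 IP, beside 14.6% and 21.4% of all genes, and 21.3% and 18.3% in the GFP IP, beside 16.3% and 26.5%. The medians were -0.12 and -0.10. Zfp26 lay highest, at 2.76 in the V5 IP and 2.80 in the GFP IP, but its calls ended with the mean of its probes. Rnf115, listed here through an older Zfp name, came next, at 2.64 and 2.69. Zfp579 lay at -1.30 and -1.48 and Zfp296 at -1.24 and -1.49. The SCAN prefix marks a dimerization domain. Members Zfp690 (Zscan29) and Zfp694 (Zkscan2) lay at -0.63 and -0.69 in the V5 IP against the mock IP, neither called. Apart from these and lower-numbered Zfp genes, 8 genes carried the prefix. Of these, 2 (25%) were higher in each DAZL IP than in the mock IP and 0 lower. They were Zscan4c, of the cleavage-stage Zscan4 cluster (1.75 in the V5 IP and 1.67 in the GFP IP), and Zkscan4 (1.38 and 1.60), while Zscan18 lay at -0.55 and -0.67 and Zscan2 at -0.53 and -0.79.

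The co-repressors that KRAB zinc finger proteins work through were described from a list of 37 genes. Against the mock IP 15 were called higher and 4 lower in each DAZL IP (40.5% and 10.8%), where the shares of all genes were 14.6% and 21.4% in the V5 IP and 16.3% and 26.5% in the GFP IP. Medians were 0.70 in the V5 IP and 0.66 in the GFP IP beside -0.44 over all genes. The highest were Cbx3, a heterochromatin protein that reads H3K9 methylation (2.37 in the V5 IP and 2.46 in the GFP IP), and Morc3, a chromatin ATPase (2.34 and 2.35). The 4 that were lower in the V5 IP were Chd3 (-1.13 in the V5 IP and -1.29 in the GFP IP) and Chd4 (-0.94 and -1.18), ATPases of the NuRD complex, and Ehmt2 (-1.07 and -1.13) and Setdb1 (-0.95 and -1.09), H3K9 methyltransferases. The V5 calls of these 4 ended without the V5 array of slide 1, without the mock array of slide 1 and without 1 input array whichever it was, and their GFP calls ended without the GFP array of slide 1. The V5 calls also ended with no filter, with normexp, with the authors' deposited values and in the fit of only the groups compared, and the GFP calls with normexp. Some of them ended under further settings. Among those called higher, Cbx3, Morc3, Rbbp4 and Tasor kept their calls in both IPs whichever array was left out and under each alternative. The V5 calls of Atf7ip, Cbx1, Cbx5, Hdac2, Dnmt3b, Uhrf1, Mphosph8, Smarcad1, Sumo2 and Pias1 ended without the V5 array of slide 1. Both calls of Pphln1 ended with normexp, with quantile normalization and with the authors' deposited values. Trim28 lay at -0.36 in the V5 IP and -0.40 in the GFP IP and was not called. Against input 11 of the 37 were higher and 2 lower in the V5 IP, and 14 and 4 in the GFP IP. The list was chosen with earlier results of these arrays known, so its counts are not independent evidence of a direction.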

How the data were processed

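RNA was measured on 8 one-colour Agilent mouse arrays. Per the file headers, spots were read with Feature Extraction 9.1.3.1, and the deposited values are linear intensities. Background was subtracted from the processed intensity and spatial trends were removed, and dim spots hold a surrogate, all per the file headers. The series table holds signals that the authors scaled to the median in GeneSifter after background subtraction, per its header. The authors' quality score in it, whose making its header does not give, served to match 44985 spots within 1e-05. Log2 of the deposited signal plus 0.1 was an alternative.

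Values analysed were log2 of the authors' processed intensity, with the 75th percentile over gene probes subtracted per array. A probe was kept where some group had it well above background on its 2 arrays (28096 of 41174). The kept probe with the highest mean stood for its gene. For the members, only probes filed under the member name were used. Current names came from RefSeq (GRCm38.p6), with 49 member probes named by accession. The adjacency of genes is from the same table.

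Comparisons used limma 3.58.1 under R 4.3.3 (two-sided moderated test of eBayes after lmFit, all 8 arrays, 1 shared spread), with Benjamini-Hochberg adjustment over 19029 genes and a call at an adjusted p under 0.05. A fold written as at least N-fold divides the mean of the brighter group by the higher of the dim probe's own signal and the array's lowest signal well above background. Precision is limited by how many arrays there are. Replicate numbers coincide with slides: same-numbered arrays deviated together, with correlations from 0.299 to 0.777 in all 6 pairs, so the slide served as a block in an alternative. The other alternatives were normexp (offset 50), quantile normalization, centring on the median, no filter, the mean of probes, only the groups compared and each array left out.

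The members and lists were chosen with earlier results of these data known. Named genes were the 8 members brightest in input, up to 8 highest and 8 lowest called in both IPs against mock IP, up to 4 each way for mock IP against input and for both IPs against input, and 2 each way of every list. Other members are named where a count, an adjacent gene or a disagreeing probe called for it, chosen after their values were seen.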

Additional observations from a re-analysis of the deposited data

Results flagged for a closer look

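For 3 members both the V5 IP arrays lay on 1 side of 0 and both the GFP IP arrays on the other, slide by slide. Zfp639, also called ZASC1, lay at 0.0282 in the V5 IP and -0.216 in the GFP IP against the mock IP (log2). Against input, Zfp668 lay at 0.0206 in the V5 IP and -0.115 in the GFP IP, and Zfp689 at 0.119 and -0.0471. The other kept probe of each lay above input with both antibodies and did not show the split. It lay at 0.69 in the V5 IP and 0.20 in the GFP IP for Zfp668, and at 0.99 and 1.13 for Zfp689. No value given here was called, and for these differences the pattern of signs was not tested as such. In the V5 IP against the GFP IP, limma called 0 of the 41 members, with 0 at an unadjusted p under 0.05.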

How the results depend on the processing

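Counts of members called higher and lower, given in that order, were 4 and 13 in the V5 IP against the mock IP, 6 and 14 in the GFP IP against the mock IP, 3 and 2 in the V5 IP against input, 4 and 4 in the GFP IP against input and 6 and 0 in the mock IP against input. With normexp they were 0 and 0, 1 and 2, 2 and 0, 3 and 0, and 0 and 0. The shares of all genes in that fit were 4.98% and 0.0526%, 6.16% and 2.37%, 6.23% and 1.74%, 6.57% and 2.5%, and 0.042% and 0%. With the slide as a replicate block they were 10 and 18, 10 and 17, 5 and 8, 6 and 10, and 14 and 5. When the fit held just the pair of groups compared, and so fewer arrays, they were 4 and 0, 5 and 7, 5 and 3, 6 and 7, and 0 and 0. Over all genes these were 10.7% and 2.02%, 14.4% and 15.3%, 14.3% and 14.3%, 18.1% and 21%, and 0.121% and 0.105%. With no filter they were 3 and 4, 3 and 11, 3 and 2, 4 and 3, and 0 and 0. Over all 27677 genes then tested these were 7.03% and 3.52%, 9.17% and 11.4%, 7.69% and 6.12%, 8.96% and 8.34%, and 0.257% and 0.249%. The lower count in the V5 IP against the mock IP was 8 with the authors' deposited table and with median centring (7.91% and 8.15% of all genes). The split in the GFP IP against the mock IP was 8 and 11 with that table, beside 18.5% and 14.7% of all genes. In the V5 IP against input 4 were lower with the mean of probes, beside 12.8% of all genes. Leaving out 1 array at a time gave 0 to 8 higher and 0 to 13 lower in the V5 IP against the mock IP, 1 to 9 and 0 to 14 in the GFP IP against the mock IP, 0 to 5 and 0 to 3 in the V5 IP against input, 1 to 5 and 0 to 5 in the GFP IP against input, and 0 to 10 and 0 to 4 in the mock IP against input. A lone array was assumed to vary like the other groups. V5 IP against the GFP IP gave 0 and 0 throughout. Of the 38 named calls 0 changed sign, normexp ended 30, leaving out the mock array of slide 1 ended 26 and the replicate block ended 0. The cause of these changes was not tested. Members not well above background have only bounds.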
